A study of Homo sapiens with 4 samples.

Results

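The amino acid carriers of 7 solute carrier families were followed in 2 colon cell lines treated with sturgeon chondroitin sulfate (SCS). Members were the protein-coding genes of the families SLC1A, SLC3A, SLC6A, SLC7A, SLC36A, SLC38A and SLC43A, by symbol, with a count above 0 in any library. Of 59 symbols that matched, 36 were above 0 and 23 were at 0 in all 4 libraries, among 21530 named genes above 0 in the whole table. HT-29 is a human colorectal adenocarcinoma line and NCM460 is a line from normal human colon. RNA was sequenced from each line grown without SCS and from each line after 24 h with 100 μg/mL SCS. The labels give both lines the same share of serum and the study's methods give them different ones, so a part of serum in line differences cannot be told apart. Each of these 4 conditions had 1 library, so the conditions have no replicate check, no p-value was computed, and all intervals are 95% intervals that cover counting error only.

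Amino acid carriers set how fast a cell takes up, exchanges and recycles amino acids. Some are heteromers, in which a heavy chain of the SLC3A family brings a light chain of the SLC7A family to the membrane. Others use the sodium or proton gradient, and a few sit on lysosomes. When amino acids run short, uncharged tRNA switches on a kinase pathway that raises the factor ATF4, and many carrier genes are known ATF4 targets. SLC7A11, the cystine and glutamate exchanger that feeds glutathione synthesis, is also a known target of the oxidative stress factor NFE2L2.

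The deposited values divided back to whole fragments, from 1156568 to 1654764 a library. The mitochondrial genome took 35.8% of fragments in HT-29 cells without SCS and 13.8% with SCS, and 62.3% and 46.3% in NCM460 cells. Its part in the results was not tested. Fragments were scaled by TMM, which sets libraries to a common level by the bulk of loci. A log2 fold change carried a prior count of 2. A locus was compared at a mean of at least 1 CPM, a count scaled to a common library size, and was called higher or lower when it differed by over 1.5-fold and its interval did not include no change. Of the colon epithelium markers, EPCAM, CDH1, KRT8, KRT18, KRT19 and CLDN7 were present in all 4 libraries. KRT20, VIL1 and LGALS4 were present in HT-29 cells and at 0 in NCM460 cells, CDX2 was seen in NCM460 cells alone, and CDX1 and TFF3 were at 0 in every library. Of the mesenchymal markers, 3 or 4 of 9 were above 0, with 12 to 39 fragments a library. The leukocyte markers PTPRC and CD3E were at 0 throughout, CD68 had 473 to 650 fragments, and LYZ had 603 and 352 in HT-29 cells and 0 in NCM460 cells. Endothelial markers summed to at most 3 fragments.

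The promoters of the members were searched for 4 motifs of stress and nutrient factors, because 10 of the 13 members called in HT-29 cells were called in 1 direction. The RefSeq windows (GRCh38.p14) run from 250 bases before to 50 bases after a start, and 30 of the 36 members had 51 windows between them. No window was listed for SLC3A1, SLC6A6, SLC7A2, SLC7A11, SLC38A3 and SLC43A3. On both strands, TGATGNAA, the C/EBP-ATF response element, was in 6 of the 51 windows and in 3.62% of 35116 windows of all genes. The antioxidant response element TGACNNNGC was in 7 of the 51 and in 13.3% of all, so about as often in the members' windows as in all windows. The E-box CACGTG was in 10 of the 51 and in 7.26% of all, and the CRE core TGACGTCA was in 0 of the 51 and in 1.85% of all. No match overlapped another. Of the 13 members called in HT-29 cells, 11 had a window and 8 held a match. Members not called there, such as SLC1A7, SLC7A8 and SLC38A7, also held matches. The share of all genes that hold any of the 4 motifs was not computed. The matches of the 8 are shown here on the gene's strand, with the matched letters in capitals. Each line has at most 30 bases of annotated untranslated region. The last 3 lines are from SLC7A6 and SLC38A5, which were called lower, and the others are from members called higher.
SLC1A4 at chr2:64989352-64989399, plus strand: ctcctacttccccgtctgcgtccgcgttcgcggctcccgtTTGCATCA
SLC36A1 at chr5:151447520-151447602, plus strand: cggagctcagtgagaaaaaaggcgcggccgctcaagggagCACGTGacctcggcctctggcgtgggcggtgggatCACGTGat
SLC38A1 at chr12:46266513-46266560, minus strand: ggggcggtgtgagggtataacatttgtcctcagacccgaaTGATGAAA
SLC3A2 at chr11:62881652-62881680, plus strand: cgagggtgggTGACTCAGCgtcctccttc
SLC3A2 at chr11:62881725-62881743, plus strand: tgcaggactccTTACATCA
SLC43A1 at chr11:57515769-57515854, minus strand: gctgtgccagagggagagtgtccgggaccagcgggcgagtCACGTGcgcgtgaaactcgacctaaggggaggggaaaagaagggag
SLC7A5 at chr16:87869592-87869677, minus strand: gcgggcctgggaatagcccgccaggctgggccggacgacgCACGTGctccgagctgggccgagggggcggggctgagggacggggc
SLC7A5 at chr16:87869501-87869549, minus strand: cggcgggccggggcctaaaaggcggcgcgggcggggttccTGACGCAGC
SLC38A5 at chrX:48470421-48470506, minus strand: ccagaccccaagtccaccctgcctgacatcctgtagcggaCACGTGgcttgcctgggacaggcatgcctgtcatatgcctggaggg
SLC7A6 at chr16:68264289-68264377, plus strand: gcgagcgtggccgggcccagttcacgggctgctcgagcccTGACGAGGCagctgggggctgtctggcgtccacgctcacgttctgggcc
SLC7A6 at chr16:68264457-68264525, plus strand: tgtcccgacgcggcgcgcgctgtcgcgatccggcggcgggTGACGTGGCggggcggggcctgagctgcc

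In SLC3A2 the antioxidant element began 37 bases before a start and the C/EBP-ATF element 38 bases after it. In SLC1A4 and SLC38A1 the C/EBP-ATF element began 7 and 4 bases before a start and ran over it. SLC7A5 held an E-box 130 bases and an antioxidant element 2 bases before its start. SLC7A6, which was called lower, held 2 antioxidant elements, so these letters stood in windows of members called in either direction. The other 3 windows with the C/EBP-ATF element, not printed, were of SLC1A3, SLC1A5 and SLC7A1, which were not called in HT-29 cells. SLC6A9, SLC38A2 and SLC36A4, which were called higher, held none of the 4 motifs in their windows.

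In HT-29 cells, more carriers were higher than lower under SCS, led by SLC7A11, its heavy chain SLC3A2 and the glycine carrier SLC6A9. Of 24 members compared, 10 were called higher, beside 16.8% of 12168 loci, and 3 were called lower, beside 14.8%. Their median log2 fold change was 0.49, and that of all loci compared was 0.07. After a smooth trend of change on transcript GC content was subtracted, 10 were called higher, beside 14.6% of loci, and 4 lower, beside 16.0%, and the 13 first calls were all kept. By total counts the split was 14 higher, beside 24.9% of loci, and 2 lower, beside 8.81%, with a median of 0.31 over all loci. By nuclear counts it was 8 higher, beside 12.2%, and 4 lower, beside 18.6%, with a median of -0.08 over all loci. Carriers took 0.345% (0.334 to 0.356) of the nuclear fragments without SCS and 0.520% (0.508 to 0.532) with it, against 0.304% (0.289 to 0.319) and 0.227% (0.216 to 0.240) in NCM460 cells. In these bulk libraries, less RNA per cell and fewer cells with that RNA cannot be told apart. The plot of levels by library shows where each member stood.

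**Figure D1:**
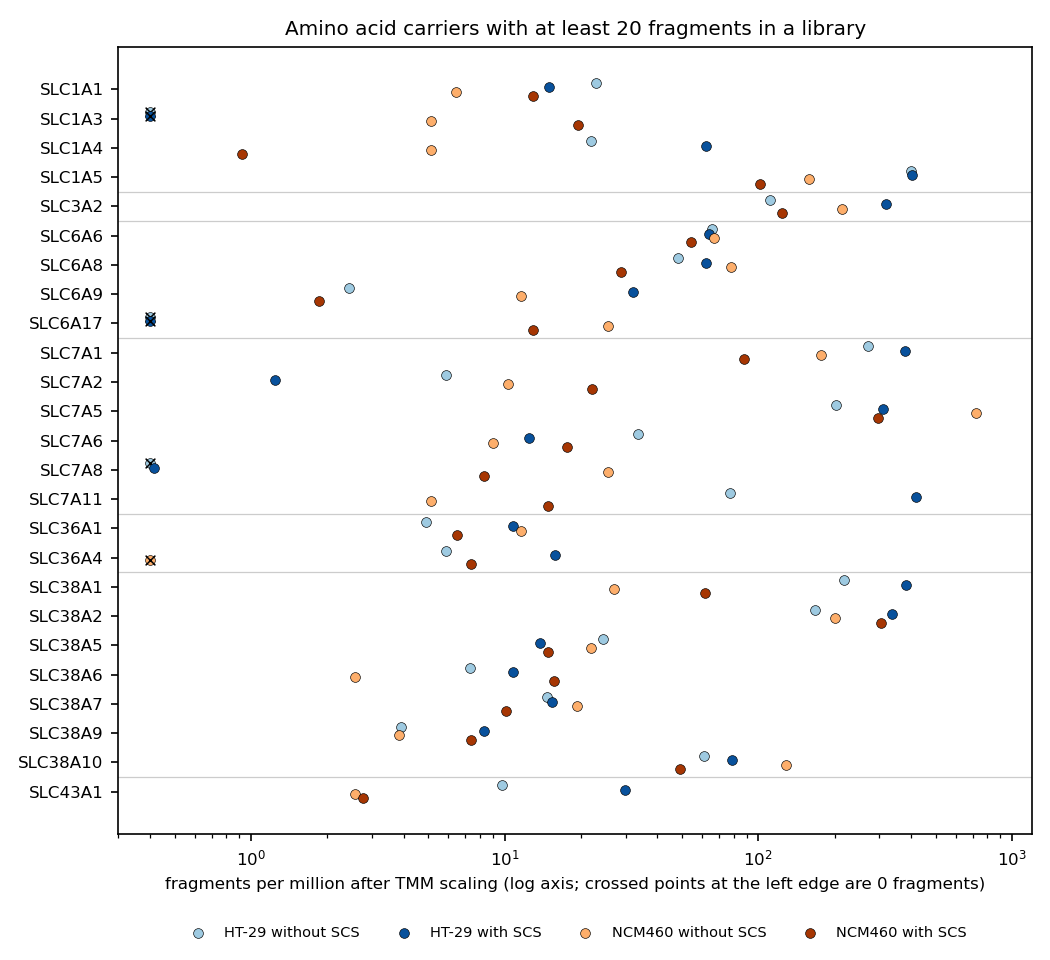
Level of the 25 members with at least 20 fragments in a library, in CPM after TMM scaling on a log axis. Each point is 1 library and crossed points are 0 fragments. SLC7A11 is highest in HT-29 cells with SCS (419), and SLC7A5 in NCM460 cells without SCS (719).

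Among the heavy chains, SLC3A2 (chr11:62856102-62888875, plus strand, GRCh38), the CD98 heavy chain, carried nearly all fragments. It had 227 fragments in HT-29 cells without SCS and 765 with SCS, and 167 and 134 in NCM460 cells. It was called higher in HT-29 cells (log2 fold change 1.51, interval 1.31 to 1.74) and called lower in NCM460 cells (-0.79, interval -1.13 to -0.45). With the GC trend subtracted the NCM460 value was -0.21 (-0.55 to 0.12) and was no longer called. SLC3A1, the heavy chain of the renal cystine carrier, reached 2 fragments at most.

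Of the light chains, SLC7A11 (chr4:138164097-138242349, minus strand) had 159 fragments in HT-29 cells without SCS and 1007 with it, a 5.39-fold higher CPM (interval 4.56 to 6.42). The NCM460 libraries had 4 and 16, which did not pass the call (log2 fold change 1.33, interval -0.11 to 3.57), and the value was 0.01 once the GC trend was subtracted. SLC7A5 (chr16:87830023-87869488, minus strand), which exchanges leucine and other large neutral amino acids for glutamine, had 413 and 743 fragments in HT-29 cells, against 560 and 322 in NCM460 cells. It was called higher in HT-29 cells (0.61, 0.44 to 0.79) and lower in NCM460 cells (-1.27, -1.47 to -1.07), where it stayed called at -0.59 after the GC trend. The HT-29 value lies close to the 1.5-fold limit and was not called by nuclear counts (0.46), after a trend on transcript length was subtracted (0.53) or by FPKM (0.54). By total counts the NCM460 value was not called (-0.58).

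SLC7A6, a light chain that exchanges cationic for neutral amino acids, went the other way in HT-29 cells. It had 69 fragments without SCS and 30 with it and was called lower (-1.35, -2.10 to -0.80), and it had 7 and 19 in NCM460 cells (0.88, -0.35 to 2.46, not called). SLC7A8, a light chain for neutral amino acids in epithelia, was seen mainly in NCM460 cells, with 20 fragments without SCS and 9 with it against 0 and 1 in HT-29 cells. It was called lower in NCM460 cells (-1.49, -2.94 to -0.43), also after the GC trend (-1.16). SLC7A7 reached 10 fragments at most.

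By point values alone, the proportion of SLC3A2 to its light chains moved in opposite directions in the 2 lines on the length-normalized scale, but not by fragments. In HT-29 cells the FPKM of SLC3A2 was 72.8 without SCS and 189 with it, and the sum of the 5 light chains was 77.2 and 115, so the heavy chain stood at 0.943 and 1.64 times that sum. In NCM460 cells SLC3A2 was at 184 and 72.6 FPKM and the light chains at 176 and 79.3, a ratio of 1.04 and 0.915. These FPKM ratios have no interval. Summed fragments gave a log2 fold change of 1.51 for the heavy chains and 1.22 for these light chains in HT-29 cells. The NCM460 values were -0.79 and -1.16, so by fragments the point value of heavy over light was higher with SCS in both lines. The counting intervals of the heavy and light sums overlapped in each line, and the difference between the sums was not tested. SLC7A11 made up 9.87% of the light-chain FPKM in HT-29 cells without SCS and 30.8% with SCS, and 0.419% and 2.05% in NCM460 cells. Counted within a library, which needs no scaling, SLC7A11 gave 27.8% (24.2 to 31.7) of the fragments of SLC7A11 and SLC7A5 together in HT-29 cells without SCS and 57.5% (55.2 to 59.9) with it. In NCM460 cells it gave 0.709% (0.194 to 1.81) and 4.73% (2.73 to 7.57). The transcripts of SLC7A11 and SLC7A5 have a GC content of 35.4% and 61.1%, and the part of GC content in the NCM460 shift was not tested. This pair was chosen after its values were seen.

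The cationic carriers SLC7A1 and SLC7A2 differed from each other. SLC7A1, the widely expressed arginine and lysine carrier, had 556 and 912 fragments in HT-29 cells (0.48, 0.33 to 0.64), a change under 1.5-fold that was not called. NCM460 cells had 138 and 95 fragments of it, which was called lower, at 0.496 times the CPM (0.378 to 0.648), also after the GC trend (-0.68). SLC7A2 had 12 and 3 fragments in HT-29 cells, a CPM ratio of 0.213 (0.0385 to 0.789) that was called lower, and 8 and 24 in NCM460 cells (1.02, -0.09 to 2.48, not called).

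The sodium-coupled carriers of neutral amino acids gave 1699 of the 3663 carrier fragments of HT-29 cells without SCS. With SCS they gave 2888 of 7194, a smaller part. Of the 5 compared there, 3 were called higher, beside 16.8% of all loci, and 1 lower, beside 14.8%. SLC38A1 (chr12:46183063-46270017, minus strand), a glutamine carrier, had 445 and 922 fragments (0.82, 0.65 to 0.99), and SLC38A2 (chr12:46358189-46372867, minus strand), the carrier behind adaptive uptake in amino acid shortage, had 341 and 812 (1.01, 0.84 to 1.21). In NCM460 cells SLC38A1 had 21 and 67 (1.16, 0.47 to 1.98) and SLC38A2 had 157 and 329 (0.59, 0.32 to 0.88), and both were called higher. Neither NCM460 call held after the GC trend: SLC38A1 was then at 0.21, and SLC38A2 turned and was called lower at -0.62 (-0.90 to -0.34).

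SLC1A4, which exchanges alanine, serine and cysteine, had 45 and 149 fragments in HT-29 cells and was called higher (1.44, 1.01 to 2.01). The NCM460 libraries had 4 and 1, a CPM ratio of 0.180 (0.00366 to 1.82). SLC1A5 (chr19:46774883-46788594, minus strand), the glutamine exchanger of many tumours and the member with the most fragments in HT-29 cells without SCS, had 816 and 971 and was level (0.02, -0.12 to 0.15). In NCM460 cells it had 124 and 110 and was called lower (-0.64, -1.03 to -0.26), a value that went to 0.04 after the GC trend. SLC38A5 had 50 and 33 fragments in HT-29 cells and was called lower (-0.78, -1.51 to -0.17), a call lost by total counts (-0.53) and by FPKM (-0.32), with 17 and 16 in NCM460 cells (-0.52, -1.64 to 0.51). SLC38A3 reached 3 fragments, SLC38A4 2 and SLC6A14 1.

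**Figure D2:**
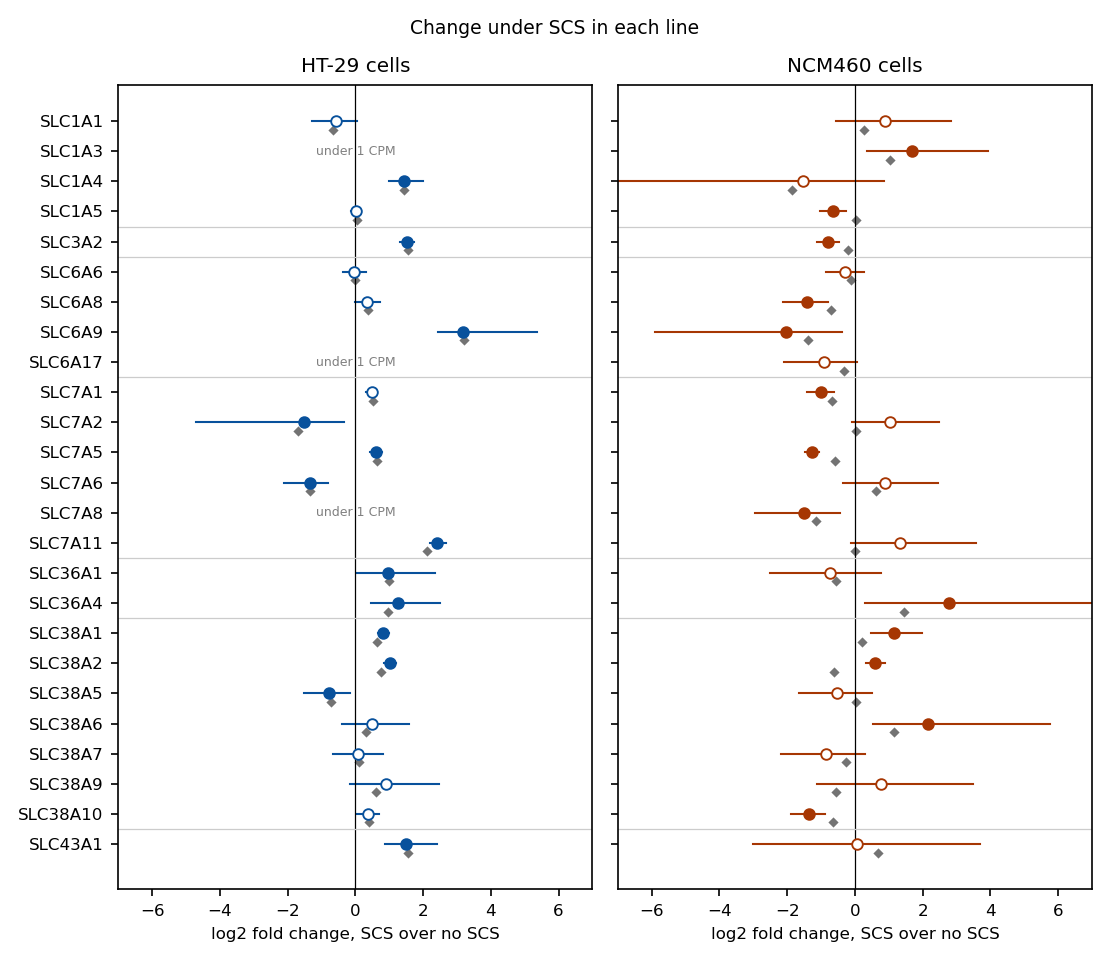
Log2 fold change with SCS over without SCS in each line for the same 25 members. Circles are the TMM values with their 95% counting intervals, cut at 7 on either side, filled where called. Grey diamonds are the values after the GC trend was subtracted. SLC3A2, SLC6A9 and SLC7A5 are filled to the right in HT-29 cells and to the left in NCM460 cells, and the diamonds of the NCM460 panel lie nearer to 0 than most circles.

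Both carriers of glutamate and aspartate with more than 3 fragments had more of them with SCS in NCM460 cells. SLC1A3, best known from astrocytes, had 4 and 21 fragments there and was called higher (1.69, 0.35 to 3.92), with 1.03 (-0.31 to 3.26) after the GC trend, and it was at 0 in both HT-29 libraries. SLC1A1, the epithelial and neuronal form, had 5 and 14 in NCM460 cells (0.89, -0.54 to 2.84) and 47 and 36 in HT-29 cells (-0.58, -1.28 to 0.04), neither of which was called. The HT-29 value was called lower after the GC trend (-0.65, -1.36 to -0.04), by nuclear counts (-0.72) and by FPKM (-1.11), and the NCM460 value was called higher by total counts (1.40). SLC1A7 reached 1 fragment.

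Of the uniporters of large neutral amino acids, SLC43A1 had 20 and 72 fragments in HT-29 cells and was called higher, a 3.07-fold higher CPM (1.85 to 5.31). It had 2 and 3 in NCM460 cells (0.08, -3.01 to 3.69). SLC43A2 reached 18 fragments.

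All 4 proton-coupled or lysosomal carriers had positive values in HT-29 cells, beside 6502 of 12168 loci. Of these 4, 2 were called higher, beside 16.8% of loci. SLC36A4, a carrier of proline and tryptophan, had 12 and 38 fragments in HT-29 cells (1.26, 0.46 to 2.50). In NCM460 cells it had 0 and 8, at least 1.92-fold higher against a floor of 3 fragments in the library at 0, a call that did not hold after the GC trend. SLC36A1, which exports small amino acids from lysosomes, had 10 and 26 in HT-29 cells and was called (0.97, 0.05 to 2.36). That call was lost by nuclear counts (0.85), and the deposited FPKM of SLC36A1 was 2.12 without SCS and 1.92 with it. The NCM460 values were 9 and 7 (-0.73, -2.50 to 0.76). SLC38A9, the arginine sensor of the lysosome, had 8, 20, 3 and 8 fragments in the order HT-29 without and with SCS and NCM460 without and with SCS, and SLC38A7, a lysosomal glutamine exporter, had 30, 37, 15 and 11. Neither was called in either line (0.89 and 0.76 for SLC38A9, 0.07 and -0.84 for SLC38A7).

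In the SLC6A family the 2 lines differed most at SLC6A9 (chr1:43991500-44031467, minus strand), a sodium-dependent glycine carrier. It had 5 and 77 fragments in HT-29 cells, a 13.1-fold higher CPM (5.38 to 41.5), and 9 and 2 in NCM460 cells, a CPM ratio of 0.160 (0.0168 to 0.773). The NCM460 call was lost after the GC trend, at -1.39 (-5.24 to 0.28). SLC6A8, the creatine carrier, had 99 and 149 fragments in HT-29 cells (0.35, -0.02 to 0.74, not called). It had 61 and 31 in NCM460 cells and was called lower (-1.41, -2.12 to -0.80), also after the GC trend (-0.72). SLC6A6, the taurine carrier, was level by this measure, with 134, 154, 52 and 59 fragments in the same order (-0.03 in HT-29 cells and -0.29 in NCM460 cells). SLC6A17, a vesicle carrier of neurons, was at 0 in HT-29 cells and had 20 and 14 in NCM460 cells (-0.92, -2.09 to 0.07). SLC6A13 and SLC6A16 reached 1 fragment each.

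Of the members with no assigned role, SLC38A10 had 125 and 190 fragments in HT-29 cells (0.37, 0.04 to 0.71, not called) and 100 and 53 in NCM460 cells, where it was called lower (-1.37, -1.90 to -0.90) and stayed so after the GC trend (-0.65). SLC38A6 had 15 and 26 in HT-29 cells (0.49, -0.41 to 1.58) and 2 and 17 in NCM460 cells, where it was called higher (2.15, 0.54 to 5.77) but not after the GC trend (interval -0.47 to 4.77). The table gives SLC38A6 the same values as MNAT1 and a noncoding neighbour, so these fragments cannot be split among them. The same holds for SLC43A3, a nucleobase carrier that reached 12 fragments, and PRG2. SLC38A11 reached 1 fragment.

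In NCM460 cells the carriers were lower under SCS more often than higher, and these values went with transcript GC content. Of 28 members compared, 5 were called higher, beside 15.4% of 12657 loci, and 8 were called lower, beside 13.8%. The members' median was -0.58 and that of all loci was 0.03. By total counts alone the split was 9 higher, beside 32.6% of loci, and 2 lower, beside 2.05%, and the median of all loci was then 0.65 and that of the members 0.08. By nuclear counts it was 7 higher, beside 18.8%, and 7 lower, beside 9.81%, with a median of 0.19 over all loci. Over loci with a GC content, the rank correlation of change with GC content was -0.62 in NCM460 cells (12596 loci) and -0.12 in HT-29 cells (12103 loci). It was -0.71 over the 28 members in NCM460 cells. All points of a line share 2 libraries. The median change in NCM460 cells was 1.15 over loci with a GC content up to 42.4% and -0.69 over loci from 57.0%.

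After the GC trend was subtracted in NCM460 cells, 0 members were called higher, beside 5.92% of loci, and 6 were called lower, beside 6.49%. The 6 were SLC7A5, SLC7A1, SLC7A8, SLC6A8, SLC38A10 and SLC38A2, of which the first 5 had been called lower before. The median of the members was then -0.23. The part of the library in the GC relation and that of SCS cannot be told apart with 1 library a condition.

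**Figure D3:**
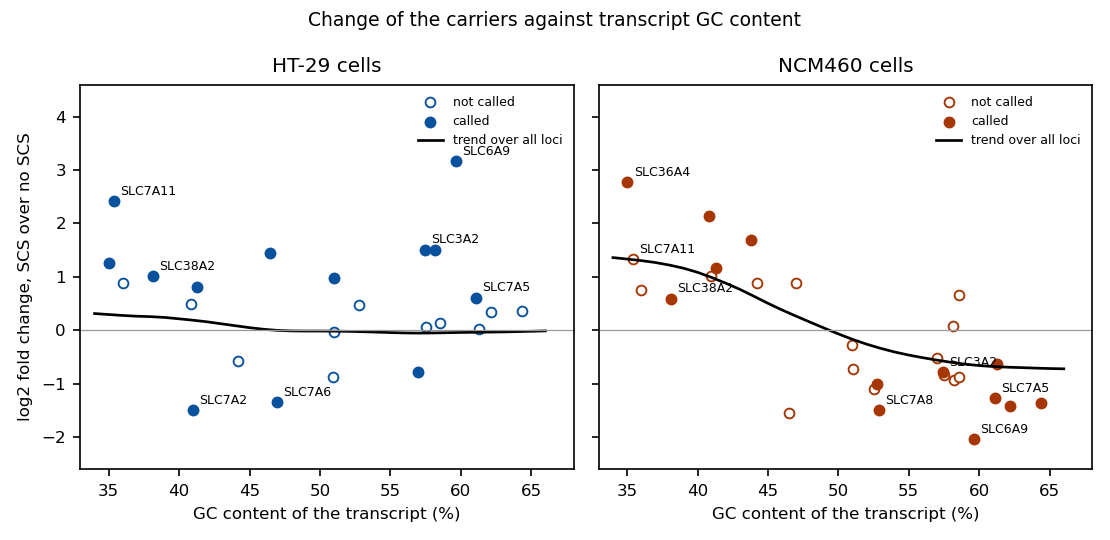
Log2 fold change of each compared member against the GC content of its longest transcript, with the trend over all loci as a line. The trend is nearly flat in HT-29 cells and runs from above 1 to below -0.5 in NCM460 cells, where most members lie along it.

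By family, HT-29 cells had 1 call higher in SLC1A, 1 in SLC3A, 1 in SLC6A, 2 in SLC7A, 2 in SLC36A, 2 in SLC38A and 1 in SLC43A, with 2 calls lower in SLC7A and 1 in SLC38A. Summed over a family, SLC7A went from 1219 to 2701 fragments (log2 fold change of the sum 0.92, 0.82 to 1.01) and SLC38A from 1017 to 2040 (0.77, 0.66 to 0.88), while SLC1A went from 909 to 1156 (0.11, -0.01 to 0.24). The median over the 6 SLC7A members compared was -0.20, opposite in sign to the sum, in which SLC7A11, SLC7A1 and SLC7A5 had the most fragments. Its sign turned with the members let in, at 0.55 over those that averaged 5 CPM or more and 0.41 with no filter, and it was 0.22 by FPKM and 0.02 by total counts. In NCM460 cells it was -0.06, and 0.56 by total counts. In NCM460 cells SLC7A went from 737 to 486 (-1.07, -1.24 to -0.91), SLC6A from 143 to 106 (-0.91, -1.28 to -0.53) and SLC38A from 316 to 504 (0.20, -0.01 to 0.41). Of 23 members compared in both lines, 14 had values of opposite sign, beside 44.2% of 10849 loci. Called higher in both were 3 (SLC36A4, SLC38A1 and SLC38A2), beside 4.22% of these loci, and 3 were called higher in HT-29 cells and lower in NCM460 cells (SLC3A2, SLC6A9 and SLC7A5), beside 1.87%. After the GC trend, 0 were called higher in both, beside 1.31%, and 2 (SLC7A5 and SLC38A2) were called higher in HT-29 cells and lower in NCM460 cells, beside 1.04%. The difference between the lines was not tested.

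The make-up of the carrier fragments, which does not depend on library scaling, also shifted. In HT-29 cells SLC1A5 gave 22.3% (20.9 to 23.7) of the members' fragments without SCS and 13.5% (12.7 to 14.3) with it. SLC7A11 gave 4.34% (3.70 to 5.05) and 14.0% (13.2 to 14.8), and SLC3A2 gave 6.20% (5.44 to 7.03) and 10.6% (9.93 to 11.4). In NCM460 cells SLC7A5 gave 36.3% (33.9 to 38.8) and 22.8% (20.6 to 25), and SLC38A2 gave 10.2% (8.72 to 11.8) and 23.3% (21.1 to 25.6). These 5 comparisons were chosen after their values were seen, and their intervals cover counting error only. The GC content of SLC38A2 is 38.1% and that of SLC7A5 61.1%, so the NCM460 shift between them ran with GC content.

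**Figure D4:**
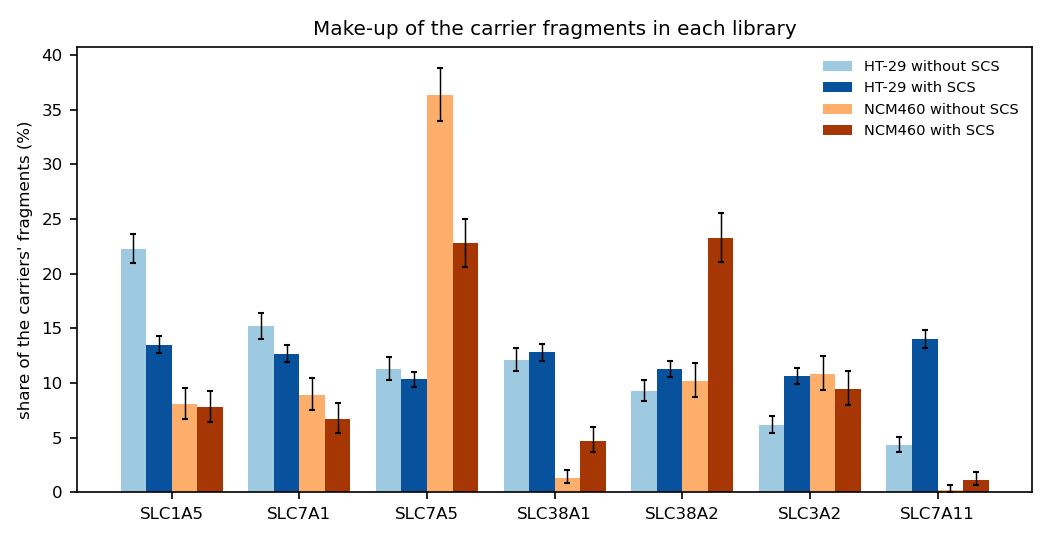
Share of the members' fragments taken by 7 carriers in each library, with 95% exact binomial intervals that cover counting error only. SLC1A5 is the leading carrier of HT-29 cells without SCS and SLC7A5 that of NCM460 cells without SCS.

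By level per length, SLC1A5 led the members of HT-29 cells without SCS at 192 FPKM, ahead of SLC3A2 (72.8), SLC7A5 (46.8) and SLC38A2 (38.3). With SCS the order was SLC3A2 (189), SLC1A5 (182), SLC38A2 (93.5) and SLC7A5 (68.2). NCM460 cells without SCS had SLC3A2 (184), SLC7A5 (156), SLC38A2 (126) and SLC1A5 (97.2), and with SCS SLC38A2 (106), SLC3A2 (72.6), SLC7A5 (60.7) and SLC1A5 (52.8). The same 4 carriers led in every library, and with 1 library a condition it cannot be said which neighbours in these orders differ beyond the spread.

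Between the lines without SCS, 8 of 28 members were called higher in HT-29 than in NCM460 cells, beside 25.3% of loci, and 10 were called lower, beside 23.1%. Under SCS, 10 of 29 were called higher, beside 24.2%, and 6 lower, beside 22.4%. These comparisons use the same 4 libraries as those above. SLC7A11 was higher in HT-29 cells in both states (log2 fold change 3.62, 2.53 to 5.81, without SCS and 4.71, 4.12 to 5.64, with it), as were SLC38A1 (2.95 and 2.61) and SLC1A5 (1.32 and 1.98). After the GC trend these values were 2.17 and 4.30 for SLC7A11, 1.86 and 2.36 for SLC38A1 and 2.18 and 2.21 for SLC1A5, all still called. SLC1A3, SLC6A17, SLC7A8, SLC43A2 and SLC43A3 were called lower in both states, but the SLC43A2 call under SCS was lost after the GC trend (-0.96, -2.40 to 0.11). SLC3A2, SLC6A8, SLC6A9 and SLC38A10 were called lower in HT-29 cells without SCS (-0.94, -0.68, -1.79 and -1.06) and higher with SCS (1.35, 1.08, 3.42 and 0.68). The 4 values without SCS were -0.33, 0.23, -1.03 and -0.05 after the GC trend and were not called, and the 4 with SCS stayed called. By total counts alone the splits were 14 higher, beside 51.1% of loci, and 5 lower, beside 8.94%, without SCS, and 16, beside 40.5%, and 5, beside 12.5%, with it, and the median of all loci was then 1.14 and 0.66.

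Genes on a list drawn up for the response to amino acid shortage were mostly higher in HT-29 cells under SCS. Earlier results of these data were known when the list was made. It also holds genes of other stresses, such as the oxidative stress factor NFE2L2, and what set these genes off was not tested. Of 19 loci compared from that list, 15 were called higher, beside 16.8% of all loci, and 1 lower, beside 14.8%, with a median of 1.44. By nuclear counts 13 were called higher, beside 12.2% of all loci, and 1 lower, beside 18.6%. ATF4, the central factor, went from 387 to 703 fragments (0.63, 0.45 to 0.81), a value close to the 1.5-fold limit. DDIT3, a stress factor that ATF4 induces, went from 22 to 195 (2.78, 2.28 to 3.62), and CHAC1, which degrades glutathione, went from 13 to 80 (2.18, 1.53 to 3.36). ASNS, the asparagine synthetase, went from 141 to 455 (1.44, 1.18 to 1.74). The list's highest locus was the stress protein gene NUPR1, with 0 and 49 fragments, at least 13.9-fold higher against the floor, and its lowest was ATF5, with 77 and 20 (-2.02). EIF2AK4, the kinase that senses uncharged tRNA, had 55 and 50 (-0.35, -0.95 to 0.21, not called). Of the list's other kinases, EIF2AK3 (1.51) and EIF2AK2 (0.60) were called higher, and EIF2AK1 was not called (0.11). EIF2AK2 was no longer called after the GC trend (0.35). Whether any of these kinases acted was not tested.

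In NCM460 cells 3 of 18 loci of the same list were called higher, beside 15.4% of all loci, and 5 lower, beside 13.8%, with a median of -0.49. The share called higher is near that of all loci. After the GC trend 1 was called higher, beside 5.92%, and 3 lower, beside 6.49%, and by total counts 5 were called higher, beside 32.6%, and 2 lower, beside 2.05%. ATF4 had 196 and 209 fragments (-0.38, -0.67 to -0.09), DDIT3 6 and 8 (-0.05), CHAC1 10 and 6 (-1.05) and ASNS 71 and 85 (-0.21), and these 4 were not called. The highest was EIF2AK4, the kinase that senses uncharged tRNA, with 3 and 46 (3.10, 1.83 to 5.79; 2.87 after the GC trend). The lowest was PPP1R15A, which reverses that kinase's signal, with 87 and 37 (-1.67, -2.30 to -1.14).

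The enzymes of amino acid synthesis and use had 8 of 30 loci called higher in HT-29 cells, beside 16.8% of all loci. They had 5 called lower, beside 14.8% (median -0.01). In NCM460 cells 5 of 31 were called higher, beside 15.4%, and 11 lower, beside 13.8% (median -0.24). The NCM460 share called higher is near that of all loci. By nuclear counts the HT-29 split was 8 higher, beside 12.2% of loci, and 10 lower, beside 18.6%. The NCM460 split was then 6 higher, beside 18.8%, and 6 lower, beside 9.81%. By total counts NCM460 cells had 8 higher, beside 32.6%, and 0 lower, beside 2.05%. The highest in HT-29 cells was ARG2, the mitochondrial arginase, with 2 and 33 fragments (a CPM ratio counted from 2 fragments, log2 interval 1.85 to 6.92), and the lowest SHMT1, with 67 and 17 (-2.03). ODC1, which starts polyamine synthesis, had 372 and 202 in HT-29 cells and was called lower (-1.10, -1.37 to -0.86), with 124 and 151 in NCM460 cells (-0.19). The lowest in NCM460 cells was PYCRL, of proline synthesis, with 11 and 4 (-1.63).

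The lists that follow stand beside 16.8% of all loci called higher and 14.8% lower in HT-29 cells. In NCM460 cells these shares were 15.4% and 13.8%. Partners and regulators of carriers had 1 of 8 loci called higher and 4 lower in HT-29 cells (median -0.63), and 0 of 7 higher and 4 lower in NCM460 cells (median -0.72). In HT-29 cells the highest was TXNIP, with 37 and 223 fragments (2.28), and the lowest SGK1, a kinase that keeps carriers at the membrane, with 276 and 56 (-2.47, -2.97 to -2.11). In NCM460 cells NEDD4L, a ubiquitin ligase of membrane carriers, was highest (0.04) and RNF5, a ubiquitin ligase that acts on SLC1A5 and SLC38A2, was lowest (-1.38). Other carriers of amino acids and peptides had 0 of 12 loci called higher and 1 lower in HT-29 cells (median -0.08), and 0 higher and 3 lower of 12 in NCM460 cells (median -0.01). SLC15A4 was highest (0.59) and SLC25A15 lowest (-1.27) in HT-29 cells, and SLC17A5 highest (1.41) and SLC25A44 lowest (-1.51) in NCM460 cells. The sensors that report amino acids to mTORC1 had 3 of 28 loci called higher and 2 lower in HT-29 cells (median 0.09), from LAMTOR2 (-0.95) to GATSL3 (0.98), which shares its values with TBC1D10A. In NCM460 cells 2 of 29 were called higher and 7 lower (median 0.00), from GATSL2 (-1.72) to FNIP1 (1.42), which shares its values with RAPGEF6. The counts of this list also moved with the scaling, as did those of all loci. By total counts HT-29 cells had 8 called higher, beside 24.9% of all loci, and 2 lower, beside 8.81%. By nuclear counts they had 0 higher, beside 12.2%, and 3 lower, beside 18.6%. NCM460 cells had 10 higher, beside 32.6%, and 3 lower, beside 2.05%, by total counts. Beside the same NCM460 shares, the calls became 1 higher and 0 lower for the partners and 3 and 0 for the other carriers. After the GC trend, NCM460 cells had 3 enzymes called higher and 5 lower, 0 and 3 partners, 0 and 0 other carriers, and 1 and 4 sensors. The shares of all loci were then 5.92% higher and 6.49% lower.

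**Figure D5:**
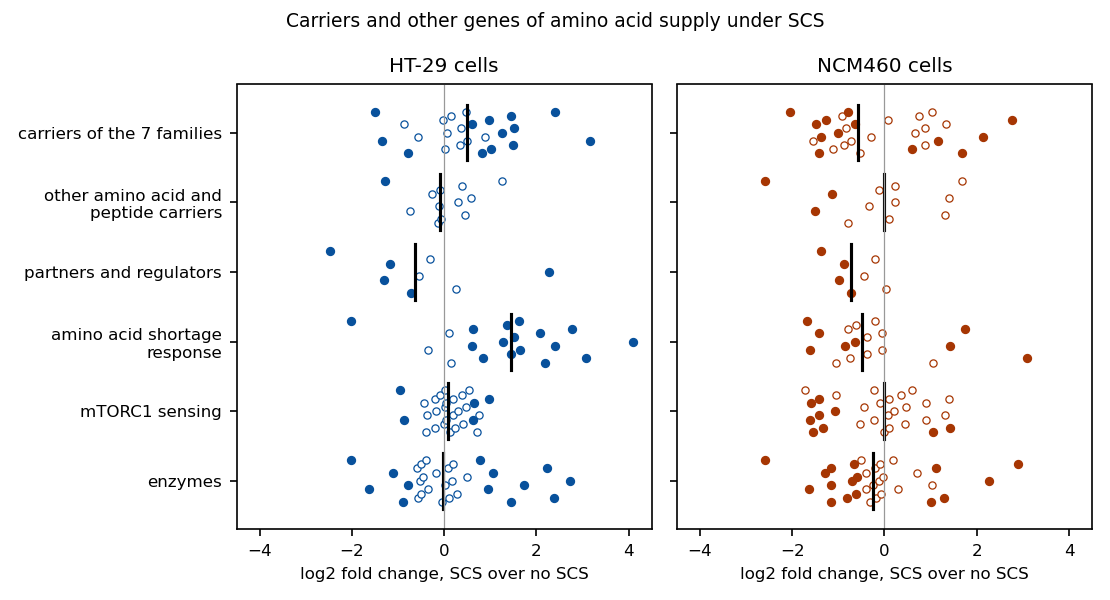
Log2 fold change with SCS over without SCS for the carriers and for 5 lists of related genes in each line. Each point is a locus, filled where called, and the bar is the median. The bar of the amino acid shortage list is at 1.44 in HT-29 cells and at -0.49 in NCM460 cells.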

How the data were processed

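Total RNA of HT-29 and NCM460 cells was made into NEBNext Ultra libraries and read as paired ends. The authors deposited a table of size-factor-scaled fragment counts per gene (a signal, not raw counts) and of FPKM, fragments scaled to gene length and library size. The submitters' processing notes name cutadapt 1.9.1, Bowtie2, HTSeq 0.6.1 and build hg19, and the study's methods name Cuffdiff, whereas the table's positions are those of GRCh38 (35 of 36 members at their GENCODE 29 position). Each deposited count column was divided by its smallest step, which gave whole fragments within 0.1 for 99.9% of values or more in each library, and whole values throughout under 200. Neighbouring rows with the same 8 values were merged, since their fragments cannot be split, which left 18650 loci. Rows without a gene name held at most 0.0352% of fragments and were left out.

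TMM factors (edgeR 4.0.16) were 1.24 and 1.50 in HT-29 cells without and with SCS and 0.578 and 0.935 in NCM460 cells. Log2 fold changes used a prior count of 2. The exact 95% Clopper-Pearson intervals concern the CPM ratio without that prior, and cover counting error only. A count test (edgeR or DESeq2) could not be fitted within a line, with no residual degrees of freedom. A floor of 3 fragments was 1.25 to 3.85 CPM. GC content came from the longest GENCODE 29 transcript (98.9% of loci), with a lowess span of 0.3. The members, lists, motifs and tests were chosen with earlier results of these data known. Members with at least 20 fragments in a library were named with their values, and from each list, among loci that averaged 5 CPM or more, the highest and lowest of each line, with ASNS, ATF4, DDIT3, CHAC1 and ODC1. Some items that this rule or the marker lists would name are not reported here. The study's methods speak of replicates, and 1 library per condition was analysed here.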

Additional observations from a re-analysis of the deposited data

Results flagged for a closer look

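3 carriers were called in opposite directions in the 2 lines, which is why they are listed here. The log2 fold change under SCS was 1.51 in HT-29 cells and -0.79 in NCM460 cells for SLC3A2, 3.17 and -2.04 for SLC6A9, and 0.61 and -1.27 for SLC7A5. The difference between the lines was not tested, since each condition had 1 library. With the GC trend subtracted, SLC7A5 was at 0.65 and -0.59 and called in both lines, but its HT-29 call was lost by nuclear counts (0.46), with a length trend subtracted (0.53) and with FPKM (0.54), and its NCM460 call by total counts (-0.58). After the GC trend SLC3A2 (-0.21) and SLC6A9 (-1.39) were no longer called in NCM460 cells.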

How the results depend on the processing

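With 1 library a condition, no spread between replicates is known, no library could be left out, and members with few fragments have wide intervals. No paired analysis was possible because each condition had 1 library. Of 13 alternatives, scaling by total counts moved the NCM460 calls to 9 higher, beside 32.6% of all loci, and 2 lower, beside 2.05%. It moved the members' median there to 0.084 and SLC1A5 there to 0.0473. Between the lines it moved the calls to 14 higher, beside 51.1%, and 5 lower, beside 8.94%, without SCS. With SCS 16 were then called higher, beside 40.5%. Subtracting the GC trend left 6 NCM460 calls, of which 0 were higher, and turned SLC1A5 (0.0445) and SLC38A2 (-0.62) in that line. Subtracting a length trend left 3 NCM460 calls higher. With deposited FPKM, 13 members were called lower in NCM460 cells, SLC38A2 there was at -0.25, and SLC36A1 in HT-29 cells was at -0.14. The cause was not tested. In HT-29 cells the number called was 9 to 16 over all alternatives, and the members' median was 0.14 to 0.75.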
